A study of Bos taurus with 16 samples.

Results

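The sites described here are the nearly fully methylated cytosine positions of the bovine autosomes: 46135 of the 189036 autosomal sites of the deposited table (24.4%), and 23.1% of all its 199395 sites. They were chosen by their own readout, a mean methylation of 95% or more over the 16 libraries, so their high level is a description and not a result. Endometrial cells were collected by cytobrush from multiparous Holstein-Friesian cows 4 to 8 h after artificial insemination, which took place 50 to 64 days after calving, and DNA methylation was measured by reduced representation bisulfite sequencing (RRBS). The cows had been fed a control diet (CON) or the same diet with rumen-protected methionine (MET) from day 12 after calving, and were grouped by whether the insemination led to pregnancy (P) or not (noP). This gave CON_P, CON_noP, MET_P and MET_noP, with 4 libraries each. All groups therefore share the postpartum lactating state, the breed and the insemination, and differ in diet, in outcome or in both. DNA was isolated from more cytobrush samples than there are libraries in every group, and how these were combined into libraries is not given in the sources used here, so the spread between libraries may not be that between single cows. Libraries are named by group and by the number in their column header. A cytobrush collects mainly the surface epithelium, and a methylation table cannot show which cell types were present, so the label of the tissue could not be checked by expression.

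Methylation of cytosines at CpG dinucleotides is copied to the new strand after each cell division, and full methylation means that every allele read in the sample carried the mark. In mammals most CpGs outside CpG islands are methylated, the bodies of transcribed genes most densely, whereas promoters in CpG islands are usually free of the mark. RRBS cuts DNA at CCGG with the enzyme MspI, so it samples short CpG-rich stretches rather than the whole genome, and its reads cover many neighbouring CpGs at once. Methionine is the precursor of S-adenosylmethionine, the methyl donor of the DNA methyltransferases, and the diet contrast of the study addresses whether its supply changes endometrial methylation. The outcome contrast asks which sites differ between inseminations that led to pregnancy and those that did not.

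The member sites left little room for variation. Their means had a median of 97.2%, with quartiles of 96.2% and 98%, and the median of their lowest library was 90.6%. In 59.6% of them every library was at 90% or more. The member closest to the limit lay in KIF12 on chromosome 8 (mean 95.00032%), and the closest site outside it was on chromosome 21 at position 68329141 with no annotated gene (94.99999%), so the limit divides a continuum. The next band, from 90% to under 95%, held 25983 autosomal sites, and 116918 were below 90%. Positions are those of ARS-UCD1.2.

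A member can be read as exactly 100% in 1 library and not in another. The share of members at exactly 100% was 30.5% in CON_P library 14, 56.6% in library 18, 60.1% in library 26 and 42.9% in library 30. In CON_noP it was 51.7% in library 12, 52.2% in library 16, 33.0% in library 24 and 29.7% in library 28. Neither group was uniform. In MET_P the share was 42.5% in library 15, 31% in library 19, 39.3% in library 27 and 25.5% in library 31, and in MET_noP it was 36.4% in library 13, 55.7% in library 17, 43.1% in library 25 and 29.9% in library 29. The group means were 47.5% ± 13.6 (SD, n = 4) in CON_P, 34.6% ± 7.73 in MET_P, 41.6% ± 12 in CON_noP and 41.3% ± 11 in MET_noP, and the libraries overlapped in all 4 comparisons. Every group had libraries on both sides of 40%.

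The loss from full methylation, which is 100 minus the percentage and is averaged here over all members of a library, hardly moved. It was 3.12, 2.64, 2.98 and 2.76 percentage points in CON_P libraries 14, 18, 26 and 30. In CON_noP libraries 12, 16, 24 and 28 it was 2.76, 2.99, 3.08 and 3.08 points. MET_P libraries 15, 19, 27 and 31 had 2.70, 2.74, 2.57 and 3.01 points, and MET_noP libraries 13, 17, 25 and 29 had 2.87, 2.54, 3.10 and 3.09 points. The ranges of all groups lie on each other, and the group means were 2.87 ± 0.214 (SD, n = 4) in CON_P, 2.75 ± 0.187 in MET_P, 2.98 ± 0.153 in CON_noP and 2.90 ± 0.261 in MET_noP. MET_P minus CON_P was -0.121 points and MET_P minus MET_noP was -0.147 points. CON_P minus CON_noP was -0.102 points and MET_noP minus CON_noP was -0.0759 points. Each of these differences is smaller than the pooled SD between libraries. No p is given, because the members were chosen on these values.

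**Figure D1:**
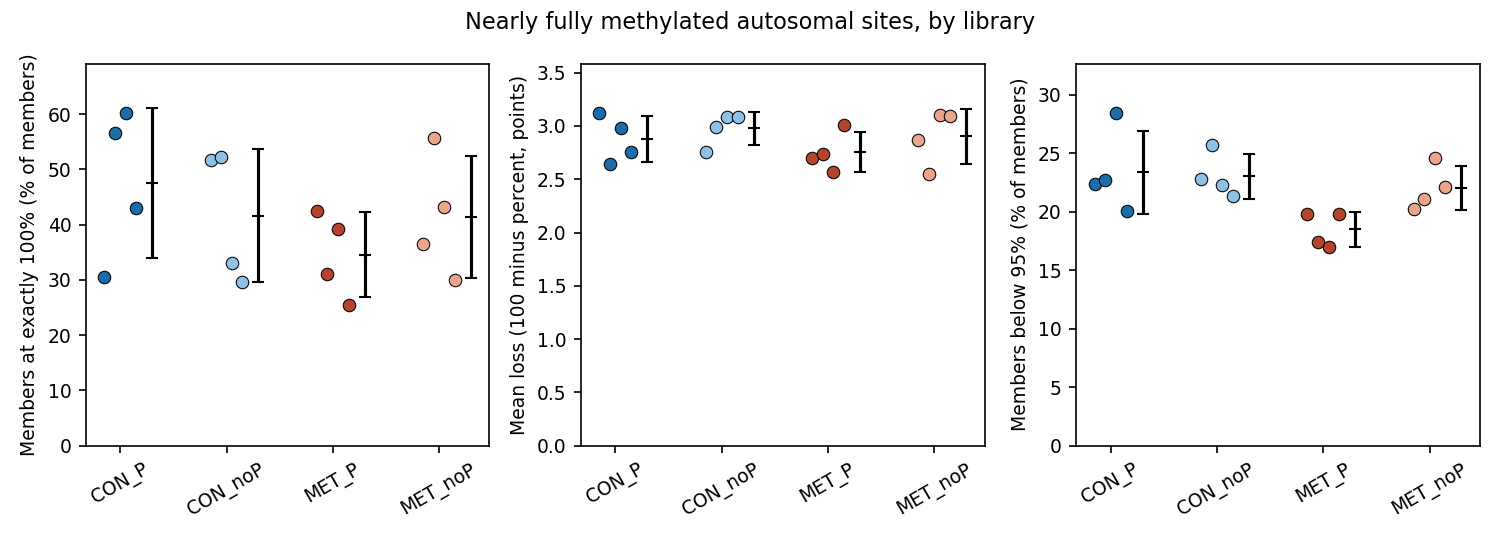
Share of members at exactly 100%, mean loss in percentage points and share of members below 95%, with 1 point per library and the group mean ± SD beside the points (4 libraries per group). The share at 100% runs from 25.5% to 60.1% over the libraries while the mean loss stays between 2.54 and 3.12 points, and the 4 MET_P libraries have the fewest members below 95% (17% to 19.8%).

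The share at 100% moved with how coarse the percentages of a library were. The 5 libraries with over 50% of members at 100% had 238 to 364 distinct percentages among the members, and the other 11 libraries, with 25.5% to 43.1% at 100%, had 490 to 1063. Mean loss did not separate them: it was 2.54 to 2.99 points in the 5 and 2.57 to 3.12 points in the 11. Members below 100% lost on average 5.71 to 7.47 points in the 5 libraries and 3.97 to 5.45 points in the 11. This follows by arithmetic, since a like mean loss falls on fewer members where more are at 100%. A share at exactly 100% depends on the reads per site, which the table does not hold, and the part of read depth in the share was not tested.

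**Figure D2:**
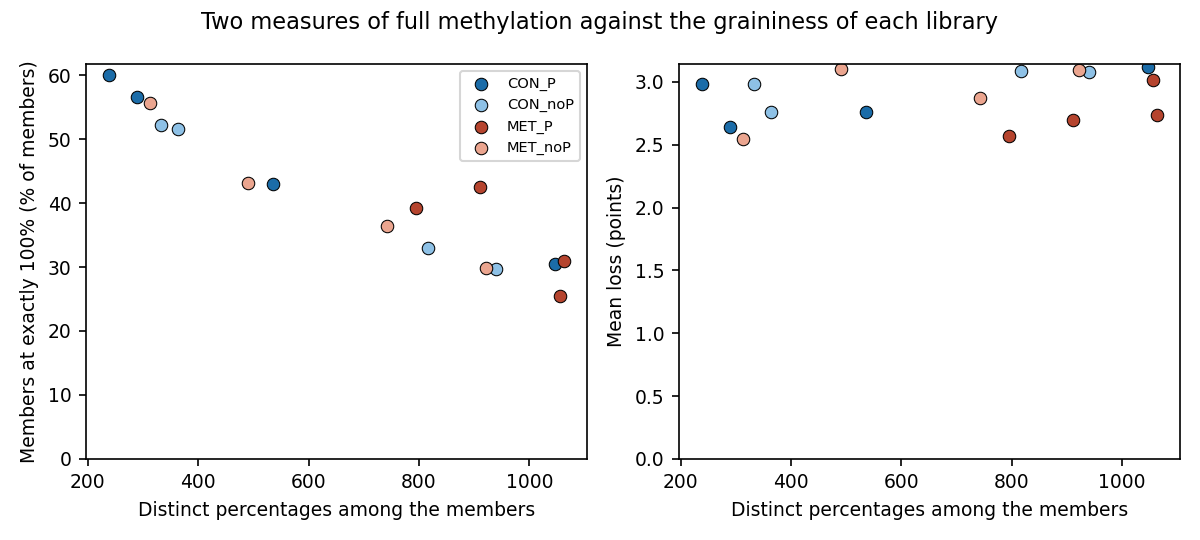
Share of members at exactly 100% (left) and mean loss in percentage points (right) against the number of distinct percentages among the members, 1 point per library coloured by group. The 5 libraries with 238 to 364 distinct values are those above 50% on the left, and on the right they lie within the range of the others.

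MET_P stood apart in the share of members below 95%. Its libraries also stood apart in the smallest loss above 0, which is limited by the reads per site and is no measure of methylation. Members below 95% made up 19.8%, 17.4%, 17% and 19.8% of the members in MET_P libraries 15, 19, 27 and 31. Those of MET_noP had 20.2% to 24.6% and those of CON_P 20.1% to 28.4%, and neither group overlapped with MET_P. The group means were 18.5% ± 1.52 in MET_P, 22.0% ± 1.89 in MET_noP and 23.4% ± 3.54 in CON_P (SD, n = 4). The smallest loss above 0 in a library was 0.397 to 0.420 points in MET_P, 0.444 to 0.694 in MET_noP and 0.441 to 0.680 in CON_P, again without overlap. MET_P libraries had 795 to 1063 distinct values, against 313 to 922 in MET_noP and 238 to 1047 in CON_P. The study reports more raw reads per replicate, and more mapped CpGs on average, for MET_P than for any other group. By its figures MET_P did not have the most bases after adapter cleaning. Sequencing depth and group cannot be told apart here. The part of this fineness, or of depth, in the share below 95% was not tested. Members below 90% were 2.33% ± 0.531 of the members in MET_P and 3.40% ± 0.764 in MET_noP, and there the libraries overlapped.

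Full methylation in every library was rare. A member was at 100% in a median of 6 libraries, 26621 members (57.7%) were at 100% in 4 to 8 libraries, and 397 were at 100% in none. Only 13 members were at 100% in all 16 libraries. Of these, 9 lay in a gene, 1 site in each: TRIM42, NECAP2 (an adaptor of clathrin-coated vesicles), DNAJB6 (a chaperone), PPP6R2 (a regulatory subunit of protein phosphatase 6), SLC45A3, ZNF541, MSI2 (an RNA-binding protein), DNAH17 (an axonemal dynein) and the unnamed gene ENSBTAG00000019545. TRIM42 was measured at 10 sites and all were members, whereas in DNAH17 35 of 104 sites were. All 4 libraries of a group stood at 100% at 3091 members in CON_P (6.70%), 1794 in MET_P (3.89%), 2320 in CON_noP (5.03%) and 2276 in MET_noP (4.93%), in the same order as the groups' mean shares at 100%.

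**Figure D3:**
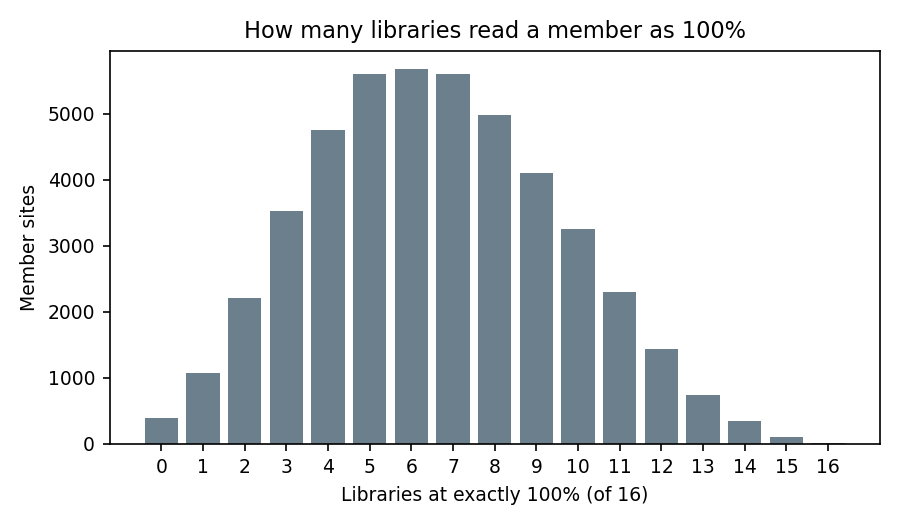
Number of member sites by how many of the 16 libraries read them as exactly 100%. The bars peak at 6 libraries (5671 sites) and fall to 397 sites with none and 13 sites with all.

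Large losses at members were few. Values under 80% made up 768 of the members' values (0.104%), spread over 756 members, and at 744 of these members only 1 library was under 80%. At 424 the other 15 libraries were all at 90% or more. The choice of members largely fixes this, since a mean of 95% leaves 80 points of loss to the 16 libraries together. The deepest was in F2RL1, the gene of a protease-activated receptor (chromosome 10, position 8030646): MET_P library 19 had 37.0%, and the other 15 libraries, which the choice of members keeps high, had 94.7% or more. Its 3 neighbouring members within 50 bp had 96.3% or more in the same library. In DOP1B (chromosome 1, position 148547469) MET_P library 15 had 47.1%, against 92.9% or more elsewhere, and its 12 neighbouring members had 94.1% or more in that library. CON_P library 18 held the next 3 values, 50.0% in ENSBTAG00000046148, 50.0% in NFRKB (a subunit of a chromatin remodelling complex) and 54.5% in GRAMD4, with neighbouring members at 90.9% or more. At these 5 sites, the neighbouring members did not fall with the site. Over all 626 values under 80% that had a member within 50 bp, 60 (9.58%) had a neighbouring member under 80% in the same library, against 0.315% of the 630542 members' values of 80% or more with such a neighbour. The mean of the neighbouring members had a median of 96.2% beside the low values and 97.6% beside the others. Low values therefore lay beside other low values more often than values of 80% or more did, although most stood without a neighbour under 80%.

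Many members came in stretches, and others stood alone. The nearest measured position, member or not and on either strand, lay at a median distance of 7 bp. It lay at 9 bp in the 90% to under 95% band and at 11 bp below 90%. Of the measured neighbours within 50 bp of a member, a mean of 68.0% were members too, and the neighbours had a mean level of 94.6%. Around sites of the next band these values were 37.6% and 90.4%, and around sites below 90% they were 5.42% and 52.4%. Neighbours can lie on the same reads and are not independent of each other. Members were joined where no other measured site lay between them and the gap was at most 1000 bp. They formed 19830 runs with a median of 2 sites, and 9606 of the runs were a single member. In 318 runs there were 10 or more sites, together 4296 members (9.31%).

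The longest run held 36 members within 136 bp of IGF1R (chromosome 21, positions 7938593 to 7938728; mean 97.6%), the gene of the receptor for insulin-like growth factors. It was followed by 30 sites in ENSBTAG00000019545 (543 bp of chromosome 12, mean 98%), which also holds a site at 100% in all libraries. Runs of 28 members lay in TRIM3, PASK and ZNF8. TRIM3 codes for a ubiquitin ligase, PASK for a nutrient-sensing kinase and ZNF8 for a zinc finger protein. DOP1B, where the second deepest single loss was seen, held a run of 26 members over 723 bp (mean 97.9%).

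Members with a measured adjacent position mostly had another member there. The table holds 9251 pairs of adjacent positions, which in a CpG are the cytosines of both strands, and 4694 members had such a partner. Of these, 88.5% had a partner that was itself a member, and 99.0% had one at 90% or more. The partners averaged 96.9% and the members 97.3%, the members being higher by choice. By group, the partners' mean loss was 3.11 points in CON_P, 2.97 in MET_P, 3.29 in CON_noP and 3.07 in MET_noP. Where both positions of a pair are members, each counts as the partner of the other. So 4156 of the 4694 partners are members themselves. The likeness of partners and members in mean level and group order is therefore largely fixed in advance. Of 80 member values under 80% that had a partner, 16 had a partner under 90% in the same library and 31 had a partner at 100%. Over all partner values, 5.38% were under 90%.

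A gene was given for 77.2% of members, against 65.6% of the 90% to under 95% band, 59.3% of the sites below 90% and 64.5% of all autosomal sites. The table gives the gene but not whether a position is exonic, intronic or in a promoter, and this was not analysed here. Over the autosomes, the share of sites that were members ran from 20.1% on chromosome 27 to 32.3% on chromosome 1.

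Members lay in 4953 of the 10412 autosomal genes of the table (47.6%), with 1 member in 889 genes and 50 or more in 55. Among the 1613 genes with at least 20 sites, the median share of members was 26.9%, and 247 of these genes held none. The 10 genes with the most members were long genes with many measured sites. They were led by GMDS, which codes for an enzyme of GDP-fucose synthesis (194 of 410 sites, chromosome 23), SHANK2, a scaffold of synapses and epithelia (151 of 390), MAD1L1 of the spindle checkpoint (145 of 394) and TRAPPC9 of vesicle transport (127 of 270). The others were the adhesion molecule SDK1 (122 of 333), the ARF GTPase-activating AGAP1 (115 of 254), the potassium channel KCNQ1 (105 of 340), IGF1R (102 of 193), the histone deacetylase HDAC4 (101 of 288) and the secretory granule protein PTPRN2 (97 of 784).

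Within these genes the mean loss of the members overlapped between the groups compared, except in MAD1L1 and AGAP1. In MAD1L1 it was 2.21 to 2.40 points in MET_noP, below the 2.53 to 2.88 points of MET_P and the 2.62 to 3.24 points of CON_noP. In AGAP1 it was 2.47 to 2.91 points in MET_P, below the 2.95 to 3.33 points of MET_noP. No test was made of these means over chosen members. In GMDS the mean loss of the members was 2.72 ± 0.365 points in CON_P, 2.57 ± 0.429 in MET_P, 2.86 ± 0.184 in CON_noP and 2.46 ± 0.258 in MET_noP (SD, n = 4). In TRAPPC9 it was 2.15 ± 0.314 points in MET_P (1.96 to 2.62) and 2.88 ± 0.364 in MET_noP (2.49 to 3.36), the ranges of which overlap. PTPRN2 had the highest losses of the 10 in CON_P, CON_noP and MET_P, 3.43 ± 0.453, 3.57 ± 0.409 and 3.33 ± 0.110 points. In MET_noP it had 3.34 ± 0.516 points, just below the 3.36 ± 0.436 points of KCNQ1.

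Of 5464 genes with at least 5 sites, 104 consisted of members only. The ones with the most sites were CIT, the citron kinase of cytokinesis (17 sites), PIK3R4, a regulatory subunit of a phosphatidylinositol kinase (17), AFF1 of the transcription elongation machinery (16), FAM21A of the endosomal WASH complex (15) and TANGO6 (15). ZNF691 had 14, the translation initiation factor EIF4G3 and ZNF358 had 13 each, and ANKRD28 and the kinase CAMKK2 had 12 each. ANKRD28 had the highest mean of these genes (98.7%), with a loss of 0.986 ± 0.392 points in CON_P, 0.836 ± 0.637 in MET_P, 1.51 ± 0.423 in CON_noP and 1.90 ± 0.564 in MET_noP (SD, n = 4). In AFF1 the loss was 0.676 to 7.40 points in CON_noP and 1.01 to 2.52 points in the other groups, so the spread of CON_noP was the widest there.

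The lists of genes relevant to the tissue and the diet differed in how many of their sites were members, against 24.4% of all autosomal sites. That base includes sites without a gene, whereas all sites of the lists have one. Members had a gene more often than all autosomal sites (77.2% against 64.5%), so the share among sites with a gene lies above 24.4%. Of the methionine cycle and methylation enzymes, 52 of 140 sites were members (37.1%), in 11 of 17 measured genes. These included 11 of 17 sites of UHRF1, which guides maintenance methylation to new DNA strands, and 9 of 44 of the de novo methyltransferase DNMT3A. PEMT, which makes phosphatidylcholine with methyl groups from S-adenosylmethionine, had 7 of 16. MAT1A, which makes S-adenosylmethionine, and MTRR, which restores methionine synthase, had 4 of 5 each. The mean loss over the 52 members was 2.72 ± 0.837 points in CON_P, 2.60 ± 0.374 in MET_P, 2.69 ± 0.884 in CON_noP and 2.44 ± 0.342 in MET_noP (SD, n = 4), and the ranges of the groups overlapped.

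Endometrial receptivity genes held few members, 8 of 219 sites (3.65%). The 21 sites of FOXA2, a factor of the uterine glands, the 14 of HOXA10, the 5 of the progesterone receptor PGR and the 4 of the oxytocin receptor OXTR included none, while LIFR, the receptor of leukaemia inhibitory factor, had 4 of 7. Imprinted genes had 237 of 932 sites (25.4%). Among these KCNQ1 had the most, 105 of 340. PEG3 had 40 of 62, GRB10 14 of 24, IGF2R 71 of 244 and IGF2 5 of 63, and GNAS (142 sites), DLK1 (27) and MEST (19) had none. Germline genes, which somatic cells keep silent, had 27 of 79 (34.2%), with 14 of 45 in TDRD9 and 9 of 23 in MOV10L1.

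Cell type markers differed as well. Epithelial markers had 4 of 57 sites (7.02%), all 4 of them in GRHL2, and none of the 18 sites of MUC1, the 15 of ELF3 or the 4 of CDH1. Stromal markers had 2 of 30 (6.67%), both in COL1A1, and leukocyte markers had 11 of 128 (8.59%), in SPI1, ITGB2, PTPRC and ITGAM. Endothelial markers had 27 of 76 (35.5%), with 9 of 10 in CDH5, the cadherin of endothelial junctions, 9 of 40 in VWF and 4 of 8 in PECAM1. These shares describe methylation and not the abundance of a cell type.

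**Figure D4:**
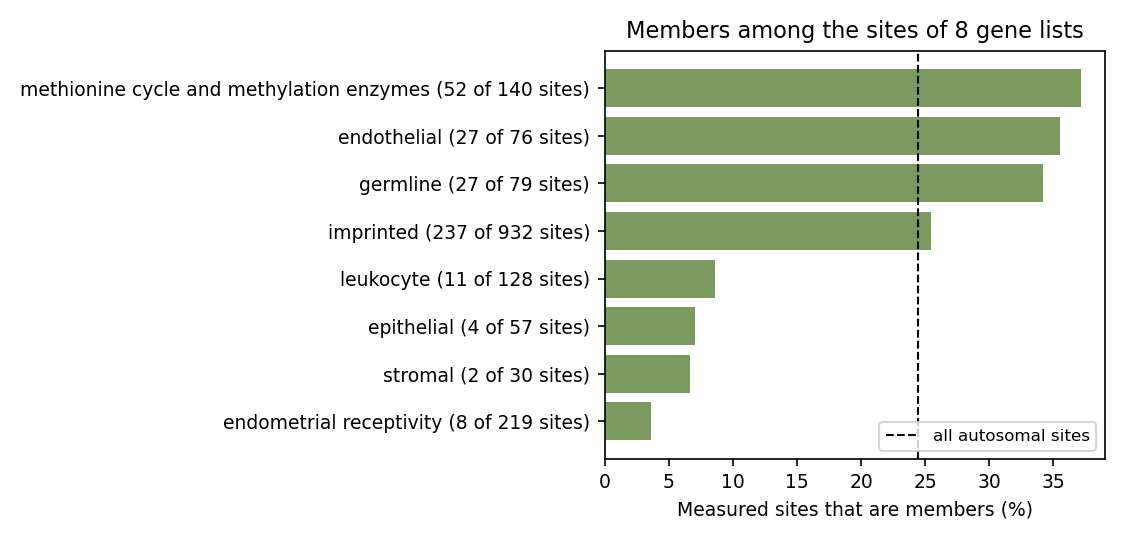
Share of the measured autosomal sites of each gene list that are members, with members and sites in brackets, and a dashed line at the share over all autosomal sites (24.4%). The line includes sites without a gene, and the share among sites with a gene lies above it. The methionine cycle, endothelial and germline lists lie above the line, and the endometrial receptivity, epithelial, stromal and leukocyte lists below 9%.

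The 4 comparisons of the design were made site by site. Each percentage was turned into an M value (log2 of the methylated over the unmethylated percent, each raised by 1 point) and tested with limma with Benjamini-Hochberg adjustment over all 199395 sites. The comparisons share groups, so they are not independent. Among the members 0 were called at an adjusted p under 0.05 in any comparison, and over all sites 0% were called as well. The lowest adjusted p among members by limma was 0.181 for CON_P against CON_noP, 0.119 for MET_P against MET_noP, 0.208 for MET_P against CON_P and 0.152 for MET_noP against CON_noP.

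CON_P and CON_noP addressed pregnancy under the control diet. At an unadjusted p under 0.05, 1971 members were higher in CON_P and 1166 lower, together 6.80% of the members, where 2.53% of all sites were higher and 1.4% lower. There was no overlap between the libraries at 780 members (1.69%), against 1.99% of all sites. A site with a library at 100% in both groups overlaps by definition, as 78.7% of the members did here. The lower share among members is therefore not read as a result, here or in the comparisons below. The member with the largest difference was in ADGRB2, an adhesion receptor (chromosome 2, position 121989704): CON_P libraries had 72.7%, 83.3%, 88.9% and 94.1%, and all CON_noP libraries 100%. This is a difference of -15.2 points (limma, M difference -4.08 ± 0.55 SE, adjusted p = 0.195), and its 4 neighbours within 50 bp differed by a mean of -2.62 points. In EBPL (chromosome 12, position 19211655) all CON_P libraries had 100% and CON_noP had 81.8%, 83.3%, 88.2% and 94.1%, a difference of 13.1 points. Its 3 neighbours differed by 0.634 points, so the difference did not extend to them.

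Sites in EYA2, a transcriptional coactivator (chromosome 13, position 75744227), and in RYR2, the calcium release channel (chromosome 28, position 10256403), were at 100% in all CON_P libraries and at 81.8% to 92.9% and 75% to 95.7% in CON_noP. Lower in CON_P were sites in MGMT, a DNA repair enzyme (chromosome 26, position 48940451), with 81.8% to 92.9% against 93.8% to 100%, and in the kinase gene MAP3K21 (chromosome 28, position 6241351), with 80% to 93.3% against 98.2% to 100%. Sites without overlap have by their choice the smallest exact permutation p that 4 libraries against 4 allow (0.0286), which is therefore no result, and none of those named passed the limma test after adjustment.

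MET_P and MET_noP addressed pregnancy under methionine. Of the members, 1629 were higher in MET_P and 1984 lower at an unadjusted p under 0.05, together 7.83%, against 2.57% and 2.55% of all sites. The libraries did not overlap at 1067 members (2.31%), against 2.9% of all sites, and 65.2% of the members had a library at 100% in both groups. A site on chromosome 8 at position 97069904, with no annotated gene, was at 100% in all MET_P libraries and at 87.0%, 90%, 91.3% and 94.4% in MET_noP (limma, adjusted p = 0.119). In ZNF532 (chromosome 24, position 58036543) all MET_P libraries had 100% and MET_noP had 80%, 86.4%, 96.3% and 96.8%, while its 4 neighbours, all members, differed by 0.339 points. In CASC4 (chromosome 10, position 102784068) MET_P had 95.9% to 100% and MET_noP 80% to 95.8%.

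In the other direction, a site on chromosome 26 at position 50639875 was at 84.2%, 86.8%, 92.6% and 97.4% in MET_P and at 100% in all MET_noP libraries, and its 6 neighbours differed by a mean of -6.99 points. KSR1, a scaffold of the MAP kinase cascade (chromosome 19, position 19210066), had 82.9% to 95.7% against 96.3% to 100%. SYT2, a synaptotagmin (chromosome 16, position 80094379), had 81.2%, 82.9%, 93.8% and 93.8% in MET_P and 95.5% to 100% in MET_noP. The largest difference without overlap was thus about 10 points in either direction.

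MET_P and CON_P addressed diet in cows that became pregnant. At an unadjusted p under 0.05, 1226 members were higher in MET_P and 2388 lower, together 7.83%, against 3.06% and 2.77% of all sites. The groups did not overlap at 951 members (2.06%), against 3.09% of all sites, and 68.6% of the members had a library at 100% in both groups. In CHID1 (chromosome 29, position 50498968) all MET_P libraries had 100% and CON_P had 76.9%, 87.9%, 88.5% and 96.0%. Its 7 neighbours within 50 bp differed by a mean of only 0.448 points. In EVI5L (chromosome 7, position 16624305) all MET_P libraries had 100% and CON_P had 80%, 88.2%, 92.3% and 92.3%, with a mean difference of 9.25 points at its 4 neighbours. The ADGRB2 site named above had 95.2% to 100% in MET_P, above the same CON_P values, and its 4 neighbours differed by a mean of 1.89 points.

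Lower in MET_P was a site in GPSM1, a regulator of G proteins (chromosome 11, position 103797516), with 83.3%, 88.2%, 90.9% and 91.7% against 100% in all CON_P libraries (M difference -3.77 ± 0.41 SE, limma, adjusted p = 0.208). The 4 neighbours of the GPSM1 site differed by a mean of -0.749 points. The adaptor gene ANKS1A (chromosome 23, position 9063523) had 82.4% to 97.1% against 100%, and its 5 neighbours differed by -3.0 points. The SYT2 site was also lower here, since CON_P had 95% to 100%, and its 1 neighbour differed by -4.13 points. The groups at 100% in all libraries at once were uneven: at 214 members CON_P was at 100% in all 4 libraries and MET_P in none, and at 35 members the reverse held. The shares at 100%, and with them the distinct values, of these groups differ, as given above.

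MET_noP and CON_noP addressed diet in cows that did not become pregnant. Here 1680 members were higher in MET_noP and 1664 lower at an unadjusted p under 0.05, together 7.25%, against 3.36% and 1.77% of all sites. The libraries did not overlap at 906 members (1.96%), against 2.75% of all sites, and 74.3% of the members had a library at 100% in both groups. RUNX2, a transcription factor of bone formation (chromosome 23, position 18944468), was at 100% in all MET_noP libraries and at 77.8%, 85.0%, 87.0% and 96.9% in CON_noP, and its 8 neighbours differed by a mean of 8.62 points. The EYA2 site was at 100% in MET_noP too, against the same CON_noP values. A site on chromosome 25 at position 40630511 was at 100% against 78.6% to 96.8%. The 2 neighbours of the EYA2 site differed by a mean of 6.14 points and the 7 of the chromosome 25 site by 3.15 points.

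Lower in MET_noP were sites in PIP5K1C, a lipid kinase (chromosome 7, position 20299012; 84.2% to 95% against 95.5% to 100%), in ENSBTAG00000050449 (chromosome 2, position 131924547; 83.3% to 94.4% against 100%) and in RAPGEF1, an exchange factor for a small GTPase (chromosome 11, position 101711517; 87.0% to 90.9% against 95.7% to 100%). The 2 neighbours of the PIP5K1C site differed by a mean of 1.875 points, opposite in sign to the site itself. The sites in ENSBTAG00000050449 and RAPGEF1 had no measured neighbour within 50 bp. At 97 members MET_noP was at 100% in all libraries and CON_noP in none, and at 98 the reverse held, which is an even split.

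The call of single members depended on the scale near 100%. With an offset of 0.1 in place of 1 point, limma called 202 members (0.438%) in CON_P against CON_noP and 251 (0.544%) in MET_P against MET_noP. It called 244 (0.529%) in MET_P against CON_P and 194 (0.421%) in MET_noP against CON_noP. In the same order, 0.114%, 0.141%, 0.139% and 0.113% of all sites were called. Every one of these members had all libraries of 1 group at 100%, and their median differences were 5.29, 4.04, 4.13 and 5.02 points. Of the sites named in the 4 comparisons, those with a group at 100% in all libraries passed with this offset and under no other setting tried, and the others passed under none. On untransformed percentages limma called 0 members, and at an unadjusted p under 0.05 it gave 627, 615, 584 and 614 members (1.36%, 1.33%, 1.27% and 1.33%), against 4.02%, 5.43%, 6.34% and 5.72% of all sites. The members' share past an unadjusted p of 0.05 was thus above that of all sites on the M scale and below it in percentage points. In points, differences over 5 were found at 4.93%, 2.96%, 3.83% and 4.04% of members in the same order, and the largest were 15.2, 15.6, 15.7 and 13.3 points.

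The interaction asked whether the outcome contrast differed between the diets. limma over all 16 libraries called 1 member, where 0.001% of all sites were called. At an unadjusted p under 0.05 there were 3191 members (6.92%), against 5.25% of all sites. The member lies in PSD3, an exchange factor for a small GTPase (chromosome 27, position 38936982). All CON_P libraries had 100% and CON_noP had 91.8%, 92.3%, 93.5% and 94.1%. MET_P had 88.9%, 94.6%, 95.5% and 95.7%, and MET_noP had 98.2%, 100%, 100% and 100%. The contrast of pregnancy was therefore 7.05 points under the control diet and -5.91 points under methionine, with no overlap in either (interaction on the M scale -5.61 ± 0.63 SE, limma, adjusted p = 0.0150).

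Its neighbourhood moved with it. The table holds 10 other sites within 50 bp, 7 of them members, with means from 93.4% to 98.1%. The difference between the contrasts was -13.0 points at the called site and lay between -10.2 and -2.82 points at the other 10, all of the same sign, with a median of -6.99 points. These sites can lie on the same reads, so they are not independent observations. The call was lost on untransformed percentages (limma, adjusted p = 0.877), with moderation by trend (0.275) and with a replicate block (0.105), and it held with an offset of 0.1 (0.00273). Without 1 library the adjusted p by limma ran from 0.00417 to 0.0745, and the call was lost without CON_noP library 16, MET_noP library 13 or MET_noP library 17 (0.0531, 0.0745 and 0.0594).

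**Figure D5:**
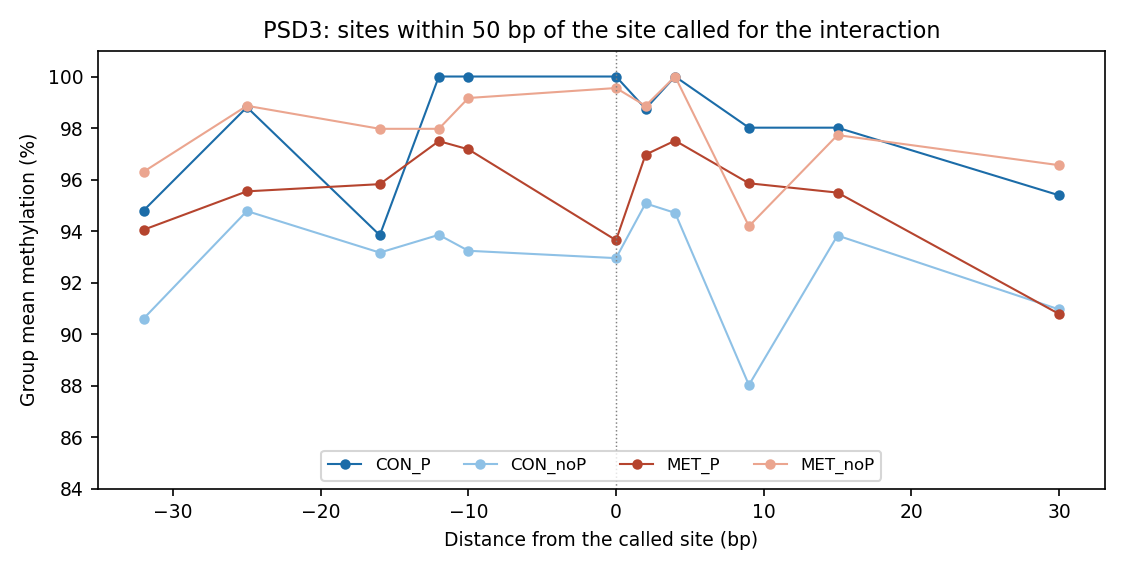
Group mean methylation in percent at the 11 sites from 32 bp before to 30 bp after the PSD3 site called for the interaction (distance 0, dotted line), 1 line per group of 4 libraries; the vertical axis starts at 84%. CON_noP lies below CON_P at each site and MET_P below MET_noP at all but the site at 9 bp.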

How the data were processed

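Per the submitters' processing notes, the RRBS reads passed through Trim Galore, Bismark and SAMtools, with ARS-UCD1.2 as the genome. The authors pooled repeat runs of a library and took methylation per cytosine position from SeqMonk, keeping positions above a minimum read count and discarding those without a valid value or at 0. The deposited values are percent methylation per site and library, without read counts, so depth per site is unknown and no interval is given. Columns were assigned to groups by the group name above them, and 0 columns were left unmapped. The read-count regression of the study could not be run on percentages. In its place limma 3.58.1 (R 4.3.3, data.table version 1.17.8) was fitted to all sites on M values with an offset of 1 point, and named sites were also compared by two-sided exact permutation tests. Python 3.11.15 (matplotlib 3.10.9, scipy 1.17.1, pandas 2.3.3, numpy 2.4.6) was used for summaries and plots. Simulated data with known changes, drawn from normal distributions and not as fractions of reads, were used to check the site test. No conclusion on the absence of calls is drawn from them.

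The members and gene lists were chosen with earlier results of these data known. Named are the 10 genes with the most members, up to 10 genes with at least 5 sites that are all members, up to 3 members in each direction per comparison with the largest difference without overlap, the 5 lowest single values, genes with sites at 100% in all libraries (9 tied genes), and genes of the lists. The PSD3 site, its neighbours, the longest runs and the gene families by symbol were chosen after their values were seen. Consecutive library numbers form 4 sets with 1 library of every group in each (starting at 12, 16, 24 and 28), and deviations of libraries in the same set correlated by -0.0170 to 0.0126, against -0.0232 to 0.0243 for other pairs, so the numbers were not taken to pair libraries. Sequences were not analysed here.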

Additional observations from a re-analysis of the deposited data

Results flagged for a closer look

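The following values lay far from the other 3 libraries of their group by Dixon's criterion, which chance meets in about 1 of 20 groups. The share of members below 90% was 3.12% in 1 MET_P library. Mean loss over the members of MAD1L1 was 2.88 points and over those of TRAPPC9 2.62 points in 1 MET_P library, over those of PIK3R4 0.743 points in 1 CON_noP library and over those of FAM21A 1.16 points in 1 CON_P library. Over the gene lists, the value that stood apart was 2.60 points for imprinted genes in CON_noP, 3.28 points for endometrial receptivity genes in MET_P, 4.01 points for the methionine cycle and methylation enzymes in CON_noP and 0.922 points for endothelial markers in MET_noP.

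At single sites a library stands apart whenever the other 3 are at 100%. This was so at MGMT (93.8%), MAP3K21 (98.2%) and PIP5K1C (95.5%) in CON_noP, at SYT2 in CON_P (95%) and at PSD3 in MET_noP (98.2%). In MET_P the PSD3 site had 88.9% in 1 library. The deepest single losses also stood apart, with 37.0% at F2RL1 and 47.1% at DOP1B in MET_P, and 50.0% at ENSBTAG00000046148, 50.0% at NFRKB and 54.5% at GRAMD4 in CON_P.

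At the PSD3 site the effects of outcome under the 2 diets differed in the interaction test (M scale -5.61, limma over all sites, adjusted p = 0.0150). The call held in 14 of 20 alternatives, over which the adjusted p by limma ran from 0.00273 to 0.877. Of these, 16 each left out 1 library, and the call held in 13 of them. Among the others it held only with the offset of 0.1. The call was lost on untransformed percentages, with trend, with the replicate block and without 1 of 3 libraries. Chromosome X, which the autosomal choice leaves out, held 807 sites at a mean of 95% or more among 10346 (7.80%). Their mean loss was 2.77 ± 0.147 points in CON_P, 2.74 ± 0.241 in MET_P, 2.90 ± 0.0264 in CON_noP and 2.89 ± 0.148 in MET_noP (SD, n = 4). None of the 13 mitochondrial sites reached that level, and the highest mean was 8.89%.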

How the results depend on the processing

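Member calls in the 4 comparisons stayed at 0 except with an offset of 0.1 (202, 251, 244 and 194 members, in the order of the report) and, for CON_P against CON_noP, with all 16 libraries in 1 model (1 member). With a replicate block by sets of consecutive library numbers the counts were 0 in the 4 comparisons and 0 for the interaction, and 3 of 16 libraries correlated best with their own set. The interaction gave 18 members with an offset of 0.1, and 0 on untransformed percentages, with trend or at a mean of 98% or more. Without 1 library it gave 0 to 4 members, and 0 without CON_noP library 16, MET_noP library 13 or MET_noP library 17. Mean loss of MET_P minus CON_P was -0.341 points at a mean of 90% or more and 0.136 points at 98% or more. The share at 100% of MET_P minus MET_noP was -6.73 points, but 3.51 points when counted at 95% or more, and that of MET_P minus CON_P was -13.0 points, but 4.90 and 1.79 points at 95% and 90% or more. The other alternatives moved mean loss and shares by less than the SD between libraries. Without 1 library, the difference in mean loss of MET_noP minus CON_noP ran from -0.149 to 0.0429 points (the last without MET_noP library 17), and its difference in the share at 100% ran from -5.15 to 3.45 points. The other 3 comparisons kept their sign but not their size. For CON_P minus CON_noP the share ran from 1.71 to 11.6 points (5.90 with all libraries, -0.366 and -0.202 counted at 95% and 90% or more) and the loss from -0.183 to -0.0249 points. For MET_P minus MET_noP they ran from -10.5 to -1.92 and from -0.266 to -0.0815 points, and for MET_P minus CON_P from -18.7 to -8.78 and from -0.208 to -0.0405 points. Reads per site are unknown, so the precision of a single percentage is too.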

Other observations

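Gene families, grouped by the start of their symbol after the values were seen, differed widely in how much of their measured sequence was nearly fully methylated. Of the 1732 sites in 123 ZNF zinc finger genes, 659 were members (38.0%), against 24.4% of all autosomal sites, with or without a gene. The share among sites with a gene lies above that base. Of the 66 ZNF genes with at least 5 sites, 29 were members at 50% of their sites or more. ZNF8 had 29 of 30 sites, ZNF70 26 of 28, ZNF74 29 of 33 and ZNF316 41 of 47, whereas ZNF787 had 22 of 115. Mean loss over the ZNF members was 2.53 ± 0.220 points in CON_P, 2.40 ± 0.223 in MET_P, 2.76 ± 0.204 in CON_noP and 2.47 ± 0.212 in MET_noP (SD, n = 4).

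Developmental families lay at the other end. HOX genes, which pattern the body axis, had 2 members among 400 sites (0.500%), PCDH protocadherin genes 3 of 231 (1.30%), PAX genes 10 of 290 (3.45%) and SOX genes 7 of 160 (4.38%). FOX genes did not share this, with 177 of 628 (28.2%). Collagen genes had 270 of 874 (30.9%), SLC transporter genes 664 of 2224 (29.9%), TRIM genes 73 of 189 (38.6%) and WNT ligand genes 33 of 311 (10.6%).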
